A study of Mus musculus with 8 samples.

Results

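Type 1 conventional dendritic cells (cDC1s) were selected from single-cell RNA-seq of mouse liver leukocytes. A barcode was first kept if it held 200 to 5000 detected genes and at most 30% mitochondrial UMIs, where a UMI (unique molecular identifier) stands for 1 captured RNA molecule. A kept cell was gated as a cDC1 if it held a UMI of H2-Ab1, UMIs of at least 2 of Xcr1, Clec9a, Naaa and Itgae with Xcr1 or Clec9a among them, and no UMI of Cd79a, Siglech, Clec4f, Trac or Kdr, which mark B cells, plasmacytoid dendritic cells, Kupffer cells, T cells and endothelial cells. This gate held 309 of 53654 kept cells. The study compared livers of 4 mice labelled Control with livers of 4 mice given β-glucan (BG, the soluble yeast glucan odetiglucan, also named Imprime PGG), all female C57BL/6J mice aged 9 weeks. The control mice are described by the study as untreated. BG mice received 1.2 mg intravenously and livers were taken on day 2. CD45+ cells were isolated after removal of dead cells, and buffy-coat cells recovered from the flow-through were added to them to raise the yield of Kupffer cells. Each mouse gave 1 library, so the mouse is the replicate throughout.

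cDC1s are the dendritic cells that take up dying cells, move their antigens onto MHC class I and prime CD8 T cells, a process called cross-presentation. Their development depends on the transcription factors IRF8, BATF3 and ID2. XCR1 is the receptor for the chemokine XCL1 made by NK cells and CD8 T cells, CLEC9A binds actin exposed by dead cells, and type I interferon acting on cDC1s is known to favour cross-priming. Conventional type 2 cells (cDC2s), which mainly present to CD4 T cells, and plasmacytoid cells (pDCs), which are known as producers of type I interferon, are the other dendritic cells of the liver.

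The gate yielded 50, 56, 33 and 39 cDC1s from control replicates 1 to 4 and 26, 37, 30 and 38 from BG replicates 5 to 8. Their summed UMIs ran from 154975 in BG replicate 5 to 415405 in Control replicate 1, and the median cDC1 of a mouse held 5977 to 8823 UMIs. BG replicate 5 stood apart as a library, with 27873 barcodes and 66.6% mitochondrial UMIs before filtering, so results that rest on it are given with and without it. The labels name no batch. The 309 cDC1 barcodes were all distinct, and none of them was held by more than 1 library's cDC1s.

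The number of gate markers varied among the cDC1s. Exactly 2 of the 4 markers were detected in 103 cells, 3 in 106 and 4 in 100. A further 61 cells lay just outside the gate, with H2-Ab1, only Xcr1 or only Clec9a of the 4 markers, and none of the excluded genes. The summed level of Irf8, which was no part of the gate, was 515 CPM (counts scaled to a total of 1000000 UMIs) in the cells just outside, 1366 CPM with 2 markers, 1859.9 CPM with 3 and 1971 CPM with 4. Cd209a, a cDC2 marker, ran the other way for the first 3 of these sets, from 214 CPM outside the gate through 112 CPM to 1.24 CPM, and was 9.56 CPM in cells with all 4 markers. These sets also differed in depth, with 5286, 6416, 7619 and 8369.9 UMIs per cell in the same order.

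Of the genes that defined the gate, Naaa, a lysosomal amidase, was the most often detected, in 95.9% of the cDC1s of a control mouse and 98.1% of those of a BG mouse on average. Clec9a was detected in 83.04% and 83.5%, and Xcr1 in 78.9% and 80.7%. Itgae, the integrin chain CD103, was the least often detected, in 33.1% ± 10.7 of control and 46.8% ± 12.8 of BG cDC1s (mean ± SD, n = 4 mice each). Since these genes chose the cells, their levels are a description and were not tested between the groups. Xcr1 measured 569, 562, 379.6 and 307 CPM in the control mice and 646, 461, 430.1 and 435 CPM in the BG mice. The 2 groups overlapped, and BG replicate 5 was the highest of the 8 mice.

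Genes that the gate did not use were compared with gated cDC2s (110 cells), pDCs (829 cells) and T cells without H2-Ab1 (17459 cells), as a description over 8 mice. cDC2s were gated by Cd209a with another of Clec10a, Mgl2 and Sirpa and by H2-Ab1, pDCs by Siglech with another of Ccr9, Cox6a2 and Klk1, and neither gate took a cell with Xcr1 or Clec9a. Irf8 averaged 1741 ± 130.1 CPM in cDC1s (mean ± SD), 91.8 ± 91.2 CPM in cDC2s, 2883 ± 229.8 CPM in pDCs and 60.7 ± 9.72 CPM in T cells. Batf3 averaged 279.9 ± 24.1 CPM in cDC1s and 147 ± 49.1 CPM in cDC2s and was close to 0 in pDCs, at 3.53 ± 5.44 CPM. Id2 averaged 1373 ± 148 CPM in cDC1s, 635 ± 195 CPM in cDC2s, 62.3 ± 22.3 CPM in pDCs and 933 ± 65.2 CPM in T cells. Batf3 and Id2 were higher in cDC1s than in cDC2s and pDCs in 8 of 8 mice, with Irf8 lower in cDC1s than in pDCs and higher than in cDC2s.

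Of the cDC1 genes outside the gate, Wdfy4, which is needed for cross-presentation, averaged 620.2 ± 61.4 CPM in cDC1s against 170.2 ± 60.2 in cDC2s and 54.2 ± 13.1 in pDCs. Tlr3, the endosomal sensor of double-stranded RNA, averaged 223 ± 22.4 CPM against 7.98 ± 12.1 and 0.896 ± 1.66. Cadm1 averaged 197 ± 35.4 CPM against 9.85 ± 13.8 and 17.7 ± 8.12. These 3 genes were higher in cDC1s than in either other class in 8 of 8 mice, as were 11 of the 17 listed cDC1 markers outside the gate. Of the others, Clnk and Sult1a1 were higher in 7 of 8 mice against cDC2s. Cd8a and Cxcr3 averaged 22.9 ± 17.2 and 52.3 ± 16.4 CPM in cDC1s, above cDC2s but below the 69.00 ± 23.1 and 76.9 ± 18.4 CPM of pDCs in 8 of 8 mice. Plet1 and Ptcra were near 0 in cDC1s, at 0.459 and 0.398 CPM. In cDC2s Plet1 averaged 10.2 ± 28.8 CPM, all from a single control mouse at 81.5 CPM. Ptcra averaged 8.82 ± 11.6 CPM in pDCs. In the other direction, Irf4 and Zeb2, factors of cDC2s, were lower in cDC1s than in cDC2s in 8 of 8 mice. Tcf4, the factor that sets pDC identity, averaged 53.5 ± 16.2 CPM in cDC1s and 1997 ± 211 CPM in pDCs. The label thus matched most of the listed markers that the gate did not use, while Cd8a, Cxcr3, Plet1 and Ptcra went against it or were not informative.

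**Figure D1:**
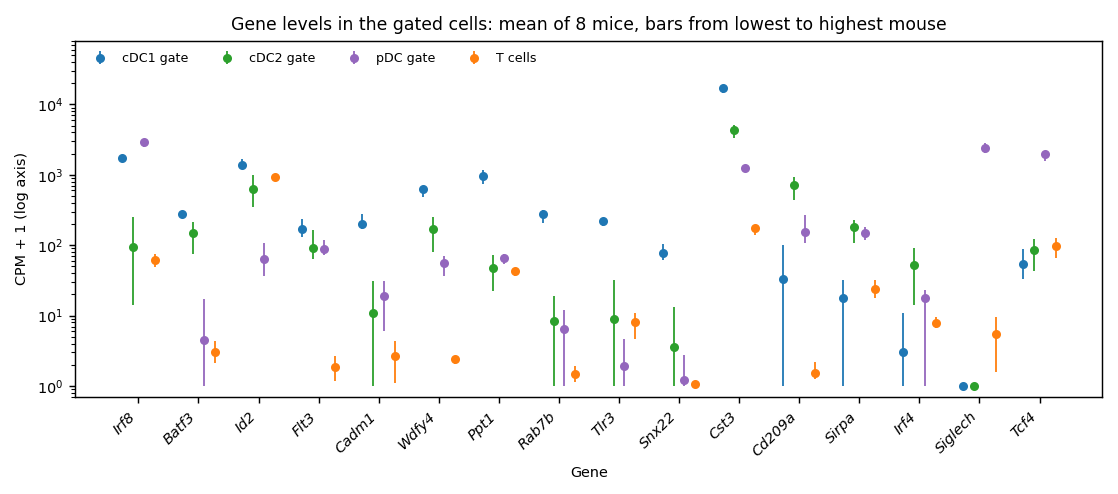
Levels of 16 genes (CPM + 1, log axis) in the gated cDC1s, cDC2s, pDCs and T cells, where points are means of 8 mice and bars run from the lowest to the highest mouse. Irf8 stood at 1741 CPM in cDC1s and 91.8 CPM in cDC2s, while Cd209a, Sirpa and Siglech belong to the gates of the other classes.

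The first comparison asked whether BG altered how many cDC1s were recovered. No difference between the groups was detected. cDC1s made up 0.677, 0.749, 0.394 and 0.575% of kept cells in the control mice and 0.560, 0.543, 0.526 and 0.588% in the BG mice. The groups overlapped, and the controls spread more widely. The means were 0.599% ± 0.154 and 0.554% ± 0.0264 (SD, n = 4 mice each), a difference of -0.0446 percentage points (two-sided exact permutation p = 0.6, where 0.0286 is the smallest p that 4 against 4 can give). Without BG replicate 5 the difference was -0.0465 percentage points. Over all libraries the share was 0.576% (95% Wilson interval 0.515 to 0.644%, for counting error only).

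As a share of all gated dendritic cells, cDC1s made up 42.4, 24.3, 17.3 and 21.4% in the control mice and 28.3, 21.4, 27.3 and 25% in the BG mice. Control replicate 1 was the highest of the 8 mice and the other controls were mixed with the BG mice. The means were 26.4% ± 11.1 and 25.5% ± 3.05 (SD, n = 4 mice each, exact permutation p = 0.943). The direction turned without Control replicate 1, to a difference of 4.46 percentage points, and without BG replicate 6, to 0.488.

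Both shares carry a background. Of 20852 cells with Trac and CD3 UMIs, which should lack the cDC1 markers, 202 met the positive part of the gate, between 0.520% and 1.76% per mouse. That range reaches above the share of cDC1s among kept cells. Median depth per mouse was 5977 to 8823 UMIs for cDC1s and 2797 to 4722 UMIs for the T cells without H2-Ab1. Those T cells do not include the 202, which held H2-Ab1. The gate left out the 202 cells, since they held Trac. Its positive part was met by 682 cells, 344 from control and 338 from BG mice, of which 178 and 131 were gated as cDC1s. Of the 682, 211 held Trac (91 control and 120 BG) and 207 held Kdr (90 and 117). Clec4f was held by 11 and 41, Siglech by 40 and 37 and Cd79a by 14 and 16, and a cell could hold several of these genes. Whether this uneven removal moved the shares was not tested. The share is thus the yield of this gate rather than a cell frequency in the liver.

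The second comparison asked which genes changed in cDC1s on day 2 after BG. UMIs were summed over the cDC1s of each mouse, and 3512 genes were tested with edgeR. 14 genes were higher in BG mice and none were lower at an adjusted p under 0.05 with a log2 fold change beyond 0.5, which is 0.399% of genes tested for higher and 0% for lower. At an unadjusted p under 0.05, 143 genes were higher and 135 lower, and DESeq2 called 10 higher and 0 lower. The 14 genes were Ifi27l2a, Ly6a, Isg15, Irf7, Bst2, Slfn2 and Ifi207, which interferon is known to induce, Hist1h2ap, Hist1h2ae, Hist1h1b, Pclaf and Stmn1, which are expressed in dividing cells, and Plac8 and Ly6c2.

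The count depended on the choice of cells and on single mice. The limit of the study, at most 2500 genes per cell, left out 41 of 178 control and 49 of 131 BG cDC1s. With the cells under this limit, 3 genes were higher (Ifi27l2a, Ly6a and Plac8) of 1831 tested, 10 of the 14 among them. Without cells that held a UMI of 12 genes of other cell types, none was higher of 485 tested, 3 of the 14 among them, in 67 cells. The count fell to 3 higher genes when Control replicate 1 was left out (Ifi27l2a, Ly6a and Hist1h2ap) and to 7 when Control replicate 4 was. Leaving out Control replicate 2, BG replicate 5 or BG replicate 6 gave 8 each, and leaving out any one of the other 3 mice gave 12 to 15. A single gene was called lower in 4 of these 8 fits, Ccl17 when Control replicate 3, BG replicate 5 or BG replicate 7 was left out and Ccl4 when Control replicate 4 was. Ifi27l2a, Ly6a and Hist1h2ap passed the test in 8 of 8 such fits, Plac8 in 7, Isg15 in 6, Ly6c2 in 6, Hist1h1b, Pclaf and Slfn2 in 3 and the other 5 genes in 2. The highest adjusted p among these fits (edgeR) was 0.0532 for Plac8, 0.0583 for Isg15, 0.13 for Ly6c2, 0.138 for Irf7, 0.114 for Bst2, 0.165 for Slfn2 and 0.238 for Ifi207. It was 0.202 for Pclaf, 0.257 for Stmn1, 0.348 for Hist1h2ae and 0.362 for Hist1h1b. The log2 fold changes of all 14 stayed above 0.5 in these fits. Of the genes tested, 2.33% had every BG mouse above every control mouse and 2.02% had every BG mouse below. All but Ly6c2, Hist1h1b and Pclaf of the 14 genes had every BG mouse above.

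**Figure D2:**
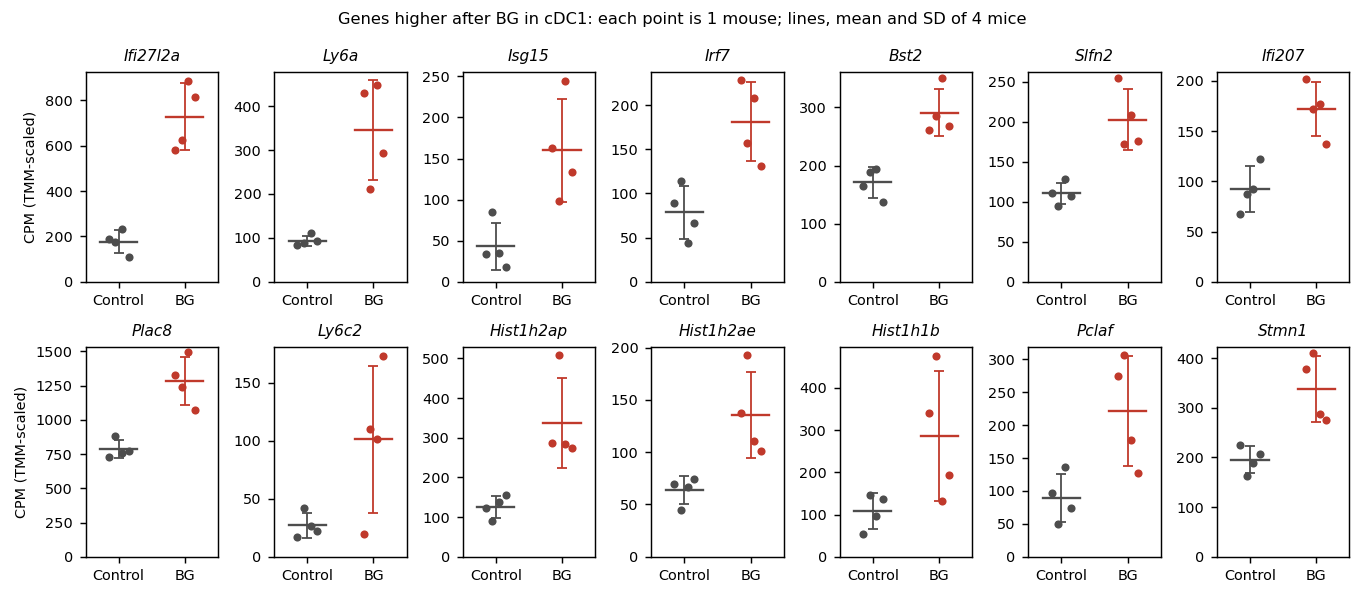
Levels (CPM, scaled by edgeR's TMM factors, axes from 0) of the 14 genes higher after BG, where each point is the cDC1s of 1 mouse and lines give the mean and SD of 4 mice. For Ifi27l2a the lowest BG mouse, at 581 CPM, lay above the highest control, at 234 CPM, while for Ly6c2, Hist1h1b and Pclaf the groups overlapped.

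Genes of the type I interferon response made up the largest group. Positions of genes were taken from the GENCODE vM21 annotation of GRCm38. Ifi27l2a (chr12:103442167-103443680), a small interferon-induced membrane protein, measured 188, 178, 234 and 111 CPM in the control mice and 581, 624, 887 and 817 CPM in the BG mice. Every BG mouse was above every control, with a fold change of 4.12 (log2 fold change 2.04 ± 0.18 (SE), edgeR adjusted p = 2.35e-07). The share of cDC1s with an Ifi27l2a UMI, with each cell thinned to 1500 UMIs, was 18.3% ± 6.47 in control and 42.5% ± 12.5 in BG mice (SD, n = 4), and unthinned it was 35.5% and 63.1%. T cells, thinned alike, held it in 29.9% and 77.6% of cells, so no class measured here served as one that lacks this RNA, and the part of free RNA in the cDC1 values was not tested. Thinning left out 6 control and 8 BG cDC1s with fewer UMIs.

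Ly6a (chr15:74994877-74998031), which encodes the surface protein Sca-1, measured 84.5, 87.5, 110.3 and 92.6 CPM in the control mice and 431, 211, 448 and 294 CPM in the BG mice (log2 fold change 1.86 ± 0.22 (SE), edgeR adjusted p = 2.08e-05). The controls lay close together and the BG mice spread more widely, all above them. Before TMM scaling, mean Ly6a was 92.9 CPM in control and 345 CPM in BG cDC1s. It was 298 and 639 CPM in all kept cells and 303 and 582 CPM in T cells. cDC1s were higher than either in 0 of 8 mice, and the part of free RNA in their Ly6a values was not tested. Isg15 (chr4:156199424-156200818), a ubiquitin-like protein that interferon induces, measured 33.8, 84.8, 35.3 and 18.5 CPM in the control mice and 163, 98.1, 244 and 134 CPM in the BG mice (log2 fold change 1.76 ± 0.32 (SE), edgeR adjusted p = 0.0105). Control replicate 2 was the highest control and came close to BG replicate 6, the lowest BG mouse. Isg15 was detected in 4.19% ± 1.53 of thinned control and 18.3% ± 6.39 of thinned BG cDC1s, against 8.01% and 19.9% of T cells. Without Control replicate 1 its adjusted p (edgeR) was 0.0583.

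Irf7 (chr7:141262706-141266481), the transcription factor that amplifies interferon production, measured 89.3, 114, 44.1 and 66.7 CPM in the control mice and 228, 158, 208 and 131 CPM in the BG mice (log2 fold change 1.09 ± 0.23 (SE), edgeR adjusted p = 0.032). Bst2 (chr8:71534255-71537456), which encodes tetherin, a protein that holds budding virus at the cell surface, measured 164, 188, 194 and 137 CPM in the control mice and 261, 285, 350.3 and 268 CPM in the BG mice (log2 fold change 0.77 ± 0.16 (SE), edgeR adjusted p = 0.032). Both genes had every BG mouse above every control, but the gap between the groups was narrow for Irf7. Before TMM scaling, mean Bst2 was 169 CPM in control and 293 CPM in BG cDC1s. In all kept cells it was 349 and 638 CPM, and cDC1s were higher than these in 0 of 8 mice. Irf7 was higher in cDC1s than in all kept cells in 8 of 8 mice. The part of free RNA was not tested for either gene. Slfn2 (chr11:83065112-83070678), a Schlafen protein known for keeping immune cells quiescent, measured 111, 95.4, 128 and 107 CPM in the control mice and 254, 172, 208 and 176 CPM in the BG mice (log2 fold change 0.85 ± 0.18 (SE), edgeR adjusted p = 0.032). Ifi207 (chr1:173723427-173741747), of the PYHIN family around Aim2, measured 67.6, 87.5, 92.7 and 122 CPM in the control mice and 202, 172, 177 and 137 CPM in the BG mice (log2 fold change 0.90 ± 0.20 (SE), edgeR adjusted p = 0.0431). Members of the Ifi200 and Ly6 clusters resemble each other, so UMIs of Ifi207, Ly6a and Ly6c2 are uncertain where reads could not be told from those of neighbouring copies. Without BG replicate 5 the adjusted p (edgeR) was 0.138 for Irf7, 0.0545 for Bst2, 0.136 for Slfn2 and 0.138 for Ifi207, so these 4 calls were lost. DESeq2 gave adjusted p = 0.056 for Slfn2 and 0.085 for Ifi207.

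Of the 64 genes listed for the type I interferon response, 36 were abundant enough to be tested. 5 of them rose (Ifi27l2a, Ly6a, Isg15, Irf7 and Bst2), where 0.399% of all genes tested did, and 0 fell. At an unadjusted p under 0.05, 24 were higher, where 4.07% of all genes tested were. 32 of the 36 had a log2 fold change above 0, with a median of 0.69 against -0.01 over all genes tested. Slfn2 and Ifi207 were not on the list. Without BG replicate 5 the median was 0.59. The 3 most abundant members that did not pass the test had smaller differences, given here and for other genes as the mean ± SD of 4 mice each. Ly6e measured 1218 ± 196 CPM in control and 1599 ± 189 CPM in BG mice with a log2 fold change of 0.38 and adjusted p = 0.389 (edgeR), and its groups did not overlap. Ifitm3, which blocks virus entry, measured 499 ± 189 CPM in control and 681 ± 162 CPM in BG mice (adjusted p = 0.584, edgeR). Ifi205, of the same family as Ifi207, measured 237 ± 28.2 CPM in control and 325 ± 90.5 CPM in BG mice (adjusted p = 0.552, edgeR).

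Genes listed for interferon gamma and for interferon signalling gave no call. 8 of 30 interferon gamma genes were tested and their median log2 fold change was 0.02. Of 16 tested interferon receptor and signalling genes the median was -0.01. Ifngr1, a chain of the interferon gamma receptor, measured 333 ± 20.5 CPM in control and 308 ± 40.2 CPM in BG mice. Irf5 measured 189 ± 24.7 CPM in control and 178 ± 34.8 CPM in BG mice and Jak2 116 ± 27.8 CPM in control and 102 ± 13.03 CPM in BG mice, and the groups overlapped for each of these 3 genes.

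Promoter sequences were read from RefSeq (GRCm38.p6) to show what some of these genes share. Windows from 250 bases before to 50 after the start site were found for 8 of the 14 genes and were searched for GAAANNGAAA or its complement TTTCNNTTTC, the core of the interferon-stimulated response element. 3 of the 8 held it (Isg15, Bst2 and Ifi207), as did 3.99% of all 27025 genes with a window. Of the tested genes with a window 134 of 2816 held it (4.76%), and of the tested type I interferon genes 12 of 27. Irf7, Plac8, Slfn2, Pclaf and Ly6c2 did not hold these letters in the window. The start sites are RefSeq's. That of Slfn5 lies inside the gene as GENCODE annotates it, and those of Bst2 and Ifi207 lie upstream of the GENCODE start. The 170 bases upstream of the start are printed 5′ to 3′ on the gene's strand for the 3 genes and for Slfn5, whose response set cDC1s apart from pDCs as described further on, with each match in capitals. Isg15 held 3 overlapping matches, Bst2 2, and Ifi207 and Slfn5 1 each.
Isg15 (chr4:156200819-156200988, minus strand): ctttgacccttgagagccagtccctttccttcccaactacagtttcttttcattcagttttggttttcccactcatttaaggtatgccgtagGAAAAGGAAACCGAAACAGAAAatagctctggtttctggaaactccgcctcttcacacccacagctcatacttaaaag
Bst2 (chr8:71537473-71537642, minus strand): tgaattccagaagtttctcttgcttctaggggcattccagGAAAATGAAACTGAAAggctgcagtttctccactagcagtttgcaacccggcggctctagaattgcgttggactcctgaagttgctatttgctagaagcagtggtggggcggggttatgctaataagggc
Ifi207 (chr1:173741810-173741979, minus strand): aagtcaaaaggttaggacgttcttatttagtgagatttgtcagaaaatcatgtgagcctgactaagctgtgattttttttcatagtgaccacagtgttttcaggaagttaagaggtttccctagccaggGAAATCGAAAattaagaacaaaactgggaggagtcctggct
Slfn5 (chr11:82951932-82952101, plus strand): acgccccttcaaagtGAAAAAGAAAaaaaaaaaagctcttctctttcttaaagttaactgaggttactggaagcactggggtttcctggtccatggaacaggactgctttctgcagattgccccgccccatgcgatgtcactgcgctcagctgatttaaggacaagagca

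In the window of Isg15 the matches lay 56 to 78 bases before the start, and in that of Slfn5 145 to 155 bases before it. A match describes the letters only, and whether a factor bound there was not measured.

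Plac8 (chr5:100553725-100572245), a small cysteine-rich protein of immune cells, was the most abundant of the genes that rose and measured 729, 879.9, 759 and 774 CPM in the control mice and 1331, 1237, 1494 and 1075 CPM in the BG mice (log2 fold change 0.70 ± 0.12 (SE), edgeR adjusted p = 0.00698). Control replicates were within a narrow range and every BG mouse was above them. Ly6c2 (chr15:75108158-75111970), a surface protein best known from monocytes, measured 16.9, 42.4, 26.5 and 22.2 CPM in the control mice and 19.6, 110.0, 102 and 173 CPM in the BG mice (log2 fold change 2.00 ± 0.38 (SE), edgeR adjusted p = 0.015). BG replicate 5 lay among the controls, and the Ly6c2 UMIs came from few cells. It was detected in 21 of 178 control and 29 of 131 BG cDC1s, and in BG replicate 6 a single cell gave 29 of its 37 UMIs. The summed level of the monocyte list was 1198 to 1858 CPM in the control mice and 698 to 1993 CPM in the BG mice, and Ly6c2 was the one of its 7 tested members that passed the test. Before TMM scaling, mean Ly6c2 was 26.7 CPM in control and 103 CPM in BG cDC1s. It was higher in the other classes, at 1366 and 3114 CPM in pDCs and 230 and 449 CPM in T cells. In cDC2s it was 184 and 284 CPM, and in all kept cells 225 and 488 CPM. The part of free RNA in the Ly6c2 values of cDC1s was not tested.

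Genes of dividing cells made up the second group. Hist1h2ap (chr13:21833026-21833507), a replication-dependent histone, measured 123, 90.1, 137 and 156 CPM in the control mice and 287, 508, 284 and 274 CPM in the BG mice (log2 fold change 1.47 ± 0.21 (SE), edgeR adjusted p = 0.00042). BG replicate 6 was far above the other BG mice, which lay close together and above all controls. Stmn1 (chr4:134468320-134473843), which destabilises microtubules, measured 224, 162, 189.8 and 207 CPM in the control mice and 378, 410.2, 288 and 274 CPM in the BG mice (log2 fold change 0.78 ± 0.17 (SE), edgeR adjusted p = 0.032). Pclaf (chr9:65890237-65903266), a partner of the replication clamp PCNA, measured 96.5, 50.4, 137 and 74.1 CPM in the control mice and 274, 306, 177 and 127 CPM in the BG mice (log2 fold change 1.34 ± 0.27 (SE), edgeR adjusted p = 0.0255), and BG replicate 8 was below Control replicate 3.

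Hist1h2ae (chr13:23570517-23571220) measured 69.97, 45.1, 66.2 and 74.1 CPM in the control mice and 137, 193, 111 and 101 CPM in the BG mice (log2 fold change 1.12 ± 0.24 (SE), edgeR adjusted p = 0.032). The linker histone gene Hist1h1b (chr13:21779883-21780625) measured 53.1, 146, 97.1 and 137 CPM in the control mice and 339, 476, 133 and 193 CPM in the BG mice (log2 fold change 1.43 ± 0.31 (SE), edgeR adjusted p = 0.032), and its groups overlapped. It was named after its values were seen, since the rule for named genes took those without overlap. Histone genes have near-identical copies, so the split of reads between Hist1h2ap, Hist1h2ae and their neighbours is uncertain. Without BG replicate 5 the adjusted p (edgeR) was 0.0854 for Hist1h2ae, 0.136 for Hist1h1b, 0.0906 for Pclaf and 0.136 for Stmn1, and these 4 calls were lost too. DESeq2 gave adjusted p = 0.0548 for Hist1h2ae and 0.449 for Hist1h1b.

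Of 15 S phase genes tested, 0 passed the test, 6 were higher at an unadjusted p under 0.05, where 4.07% of all genes tested were, and all 15 had a log2 fold change above 0 (median 0.65). Of 20 tested genes listed for G2 and M phase, 2 rose (Pclaf and Stmn1), where 0.399% of all genes tested did. At an unadjusted p under 0.05, 6 were higher and 1 lower, and the median was 0.41. Without BG replicate 5 the medians were 0.57 and 0.30. Pclaf was on the second list though it is a partner of the replication clamp. The called histone genes Hist1h2ap, Hist1h2ae and Hist1h1b were on neither list, so these lists do not place the calls in a phase. Among the most abundant members, Dut, which clears dUTP, measured 53.1, 79.5, 79.4 and 59.2 CPM in the control mice and 144, 149, 79.8 and 114 CPM in the BG mice, with every BG mouse above every control but an adjusted p of 0.147 (edgeR). The replication clamp Pcna measured 130.2 ± 36.9 CPM in control and 174 ± 58.8 CPM in BG mice. The helicase subunits Mcm3 and Mcm6 measured 70.2 ± 34.2 CPM in control and 102 ± 40.3 CPM in BG mice and 62.2 ± 22.7 CPM in control and 85.6 ± 40.8 CPM in BG mice, and for all 3 genes the groups overlapped. H2afz and Hmgb2 had log2 fold changes of 0.11 and 0.19 (adjusted p = 0.913 and 0.754, edgeR). Tubb5, a tubulin, measured 427 ± 73.1 CPM in control and 590.2 ± 78.2 CPM in BG mice without overlap (adjusted p = 0.313, edgeR).

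To see which cells held these RNAs, the cDC1s were divided by a UMI of Mki67 or Top2a, markers of cycling cells, a split made after the calls were known. 86 of the 309 cDC1s held one, 24, 30.4, 24.2 and 17.9% of the cDC1s of control replicates 1 to 4 and 38.5, 35.1, 23.3 and 31.6% of those of BG replicates 5 to 8. The means were 24.1% ± 5.07 and 32.1% ± 6.50 (SD, n = 4, two-sided exact permutation p = 0.114), and the groups overlapped through BG replicate 7. Without BG replicate 5, the highest mouse, the BG mean was 30.02% ± 6.05 (SD, n = 3, exact permutation p = 0.229). With each cell thinned to 1500 UMIs, Mki67 or Top2a was detected in 11.1% ± 3.64 of control and 21.1% ± 3.17 of BG cDC1s. The lowest BG mouse, at 16.7%, then lay above the highest control, at 14.5%, and this thinned share was not tested. Mki67 alone was detected in 9.25% ± 4.21 of thinned control and 15.9% ± 5.16 of thinned BG cDC1s, against 1.87% and 5.10% of T cells.

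These 86 cells gave 93.7% of the Hist1h2ap UMIs, 98.8% of the Pclaf UMIs, 93.1% of the Hist1h1b UMIs and 92.6% of the Stmn1 UMIs. Within them Hist1h2ap measured 380.1 ± 122 against 828 ± 302 CPM (control against BG mice, mean ± SD, n = 4) without overlap, while Pclaf (286 ± 112 against 548 ± 186 CPM) and Stmn1 (605 ± 135 against 781 ± 157 CPM) overlapped. The UMIs of the interferon genes came from both sets. Ifi27l2a measured 183 ± 79.6 against 755 ± 144 CPM in the cells without Mki67 and Top2a and 165 ± 44.2 against 701 ± 128 CPM in the cells with them, and Ly6a measured 81.7 ± 14.5 against 377 ± 139 CPM and 124 ± 64.4 against 332 ± 158 CPM. Ifi27l2a, Ly6a, Bst2 and Ifi207 did not overlap between the groups in either set. Isg15 and Irf7 overlapped in the cells without Mki67 and Top2a, at 52.6 ± 37.9 against 128 ± 37.5 CPM and 93.7 ± 39.4 against 199 ± 60.5 CPM, and Slfn2 overlapped in the cells with them, at 118 ± 21.6 against 169.5 ± 43.98 CPM. With the 86 cells left out, edgeR called 3 of 2256 genes higher, namely Ifi27l2a, Ly6a and Plac8. Only 8 of the 14 genes were among those 2256, and the others were too scarce to be tested.

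**Figure D3:**
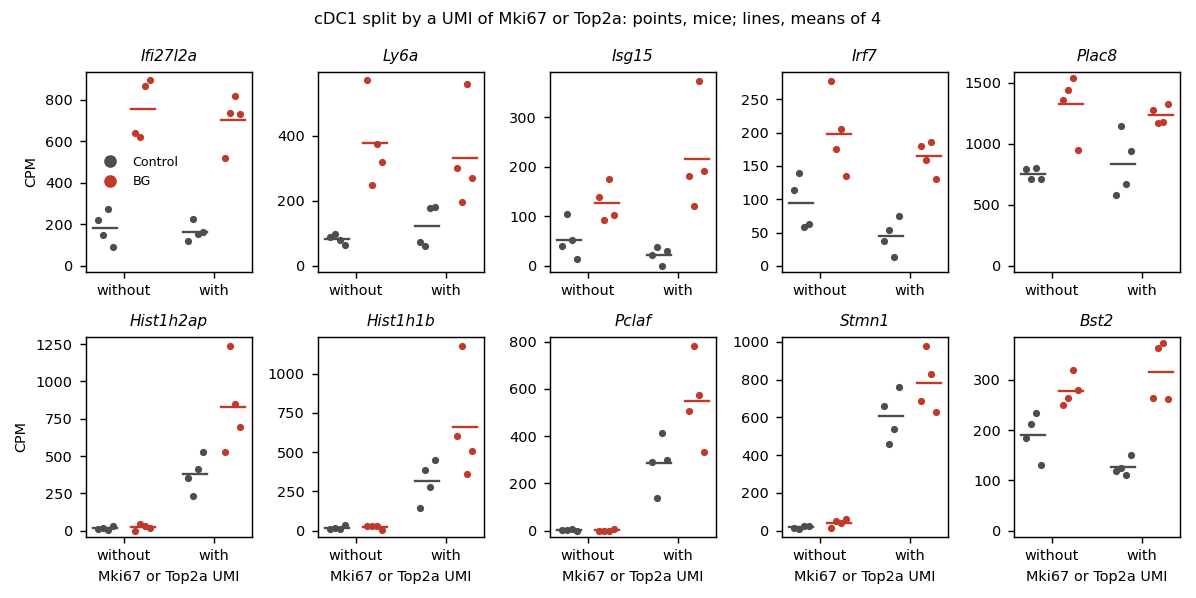
Levels (CPM) of 10 of the 14 genes in cDC1s without and with a UMI of Mki67 or Top2a, where points are mice and lines are means of 4. Hist1h2ap, Hist1h1b, Pclaf and Stmn1 were low in the cells without these UMIs in both groups, and Ifi27l2a was higher in BG mice in both sets of cells.

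Antigen presentation genes gave no call in either direction. 13 of 14 tested MHC class II genes had a log2 fold change below 0, 5 of them at an unadjusted p under 0.05, where 3.84% of all genes tested were lower (median -0.20). Cd74, the invariant chain, measured 16736, 15703, 15475 and 13675 CPM in the control mice and 14063, 11275, 14212 and 12414 CPM in the BG mice (log2 fold change -0.25 ± 0.12 (SE), edgeR adjusted p = 0.627). Control replicate 4 lay among the BG mice. H2-Aa, a class II chain, measured 5988 ± 341 CPM in control and 5080.2 ± 446 CPM in BG mice. H2-Eb1 measured 5297 ± 782 CPM in control and 4832 ± 864 CPM in BG mice and H2-DMa, which helps load peptide, 811 ± 159 CPM in control and 666 ± 75.9 CPM in BG mice. Their adjusted p-values (edgeR) were 0.614, 0.882 and 0.627. H2-Ab1 was part of the gate and was not tested.

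Of 22 MHC class I genes, 16 had a log2 fold change above 0 and the median was 0.09. B2m, the light chain of class I, measured 1648, 1389, 1099 and 1122 CPM in the control mice and 1768, 1225, 1854 and 1585 CPM in the BG mice (log2 fold change 0.28 ± 0.14 (SE), edgeR adjusted p = 0.657), with overlap between the groups. The class I heavy chain gene H2-K1 measured 989 ± 154 CPM in control and 1091 ± 147 CPM in BG mice, and H2-D1 measured 1153 ± 158 CPM in control and 1213 ± 171 CPM in BG mice. Psmb8, a subunit of the immunoproteasome, measured 915 ± 133 CPM in control and 1048 ± 159.7 CPM in BG mice (adjusted p = 0.797, edgeR). The 16 tested cross-presentation genes had a median log2 fold change of -0.02, between -0.34 and 0.37.

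The identity genes of cDC1s gave no call either. Of 13 tested cDC1 markers outside the gate, 10 had a log2 fold change below 0 (median -0.13). Rab7b, a small GTPase of late endosomes, measured 289.6, 307, 309 and 322 CPM in the control mice and 287, 205, 217 and 258 CPM in the BG mice (log2 fold change -0.36 ± 0.15 (SE), edgeR adjusted p = 0.584). Every BG mouse was below every control for Rab7b, without passing the test. Ppt1, a lysosomal thioesterase, measured 927 ± 132 CPM in control and 1011 ± 116 CPM in BG mice. Wdfy4 measured 648 ± 34.1 CPM in control and 591 ± 57.9 CPM in BG mice and Cd24a measured 295 ± 42.9 CPM in control and 254 ± 45.4 CPM in BG mice. The 18 tested factors of dendritic cell development, Irf8 and Id2 among them, had log2 fold changes between -0.38 and 0.33 with a median of -0.07.

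Chemokines gave no call in the fit of all 8 mice. Of 7 tested members 0 passed the test, and 6 had a log2 fold change below 0. Cxcl9, which draws CXCR3-bearing T cells, measured 147, 98.1, 39.7 and 229.6 CPM in the control mice and 124, 80.3, 226 and 467 CPM in the BG mice. The groups overlapped widely, and 1 cell gave 62 of the 62 Cxcl9 UMIs of Control replicate 4 and another 120 of the 143 of BG replicate 8. Ccl4 measured 154 ± 104 CPM in control and 71.9 ± 26.3 CPM in BG mice (adjusted p = 0.392, edgeR). Ccl5 measured 202 ± 129 CPM in control and 144 ± 117 CPM in BG mice, and Cxcl16 measured 90.5 ± 14.5 CPM in control and 68.1 ± 16.04 CPM in BG mice.

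Genes of maturation and of IL-12, the cytokine by which cDC1s favour Th1 and CD8 T cell responses, were scarce in both groups. Of 19 genes of migratory mature dendritic cells 3 were abundant enough to be tested, and of 19 costimulation and checkpoint genes 7, and none passed. Ccr7 and Il12b, named here for their role rather than by the rule, were detected in 4 and 2 of 178 control cDC1s. They were detected in 3 and 0 of 131 BG cDC1s, and 0 of 131 allows a share of cells with a UMI of up to 2.29%. Ccl22, a chemokine of mature dendritic cells, measured 62.7, 21.2, 0 and 148 CPM in the control mice and 0, 2.97, 0 and 3.27 CPM in the BG mice and came from 8 control and 2 BG cells. Ccl17, which binds the same receptor, CCR4, was detected in 5 control cells with 77 UMIs and in 1 BG cell with 1 UMI. Both were among the 7 genes called lower by edgeR when low counts were not filtered, with Ccl4, Cd209a, Gzma, Kif21b and Klrb1b, and neither was tested in the filtered fit of all 8 mice.

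Receptors and signalling genes through which β-glucans are known to act were also measured. 12 of 20 listed genes were tested and 0 passed (median log2 fold change -0.07, from -0.70 to 0.26). Clec7a, which encodes the β-glucan receptor Dectin-1, was not analysed here. Fcer1g, an adaptor that recruits the kinase Syk, measured 288 ± 94.7 CPM in control and 224 ± 91.2 CPM in BG mice. Itgb2, a chain of complement receptor 3, measured 134 ± 23.3 CPM in control and 133 ± 28.2 CPM in BG mice, and the kinase genes Lyn and Prkcd measured 181 ± 11.5 CPM in control and 171 ± 18.5 CPM in BG mice and 102 ± 33.1 CPM in control and 84.5 ± 19.6 CPM in BG mice. The 8 tested NF-kB and inflammatory genes had a median of -0.34, with 2 lower at an unadjusted p under 0.05, where 3.84% of all genes tested were lower.

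Genes that respond to handling of tissue gave no call. Of 14 heat shock genes, 11 had a log2 fold change above 0 (median 0.23), and of 21 immediate early genes 18 had one below 0 (median -0.19). The chaperone gene Hspa8 measured 2674 ± 337 CPM in control and 3472 ± 365 CPM in BG mice (adjusted p = 0.314, edgeR). Hsp90ab1, Hsp90aa1 and Hspa5 had log2 fold changes of 0.21, 0.28 and 0.29, with overlap between the groups. Median log2 fold changes were 0.15 for 24 genes of oxidative phosphorylation, 0.21 for 11 of glycolysis and -0.22 for 8 chemokine and homing receptors.

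No gene passed the test in the 5 remaining lists. Their median log2 fold changes were -0.08 for 6 genes of antigen uptake, -0.15 for 10 genes of apoptosis and survival, -0.17 for 11 genes of cholesterol and lipid metabolism, 0.20 for 3 cytokines and 0.11 for 7 nucleic acid sensors.

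**Figure D4:**
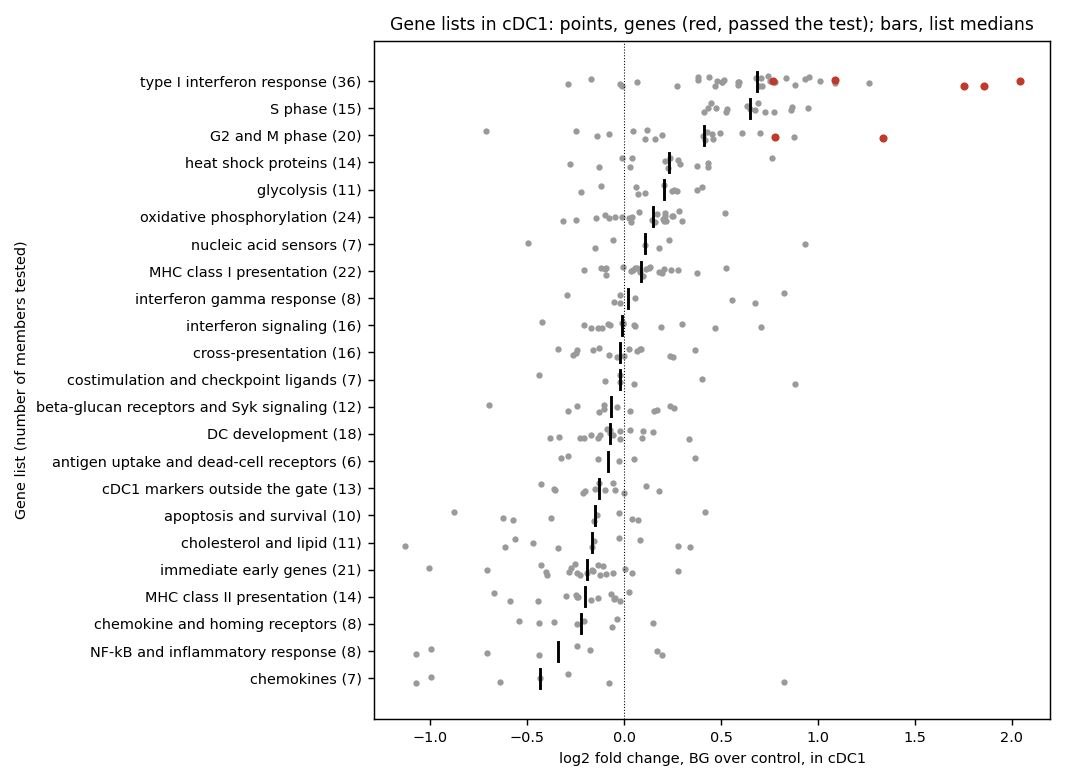
log2 fold change, BG over control, of the tested members of each gene list with 5 or more of them in cDC1s, with the number tested in parentheses, where red points passed the test and black bars are list medians. The type I interferon list, with a median of 0.69, and the S phase list, at 0.65, had the highest medians, and the chemokines, at -0.44, had the lowest.

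RNA of other cell types was present in the cDC1 sums. The summed level of 14 T cell markers was 65.1 to 229.6 CPM in the control mice and 101 to 304 CPM in the BG mice, and that of 12 Kupffer cell markers was 48.1 to 547 CPM in the control mice and 32.6 to 300.2 CPM in the BG mice. NK cell markers summed to 203 to 609.6 CPM in the control mice and 139.7 to 457 CPM in the BG mice, B cell markers to 167 to 229 CPM in the control mice and 150.3 to 215 CPM in the BG mice and endothelial markers to 259.7 to 384 CPM in the control mice and 214 to 480.4 CPM in the BG mice. These ranges overlapped between the groups, and so did those of the next pair. cDC2 markers summed to 71.6 to 329.6 CPM in the control mice and 45.7 to 175 CPM in the BG mice and pDC markers to 71.6 to 159 CPM in the control mice and 65.4 to 157 CPM in the BG mice, with Cox6a2 and Dntt at 0 in all 8 mice. Hepatocyte markers reached 3459 CPM in BG replicate 7, where 1 cell gave 225 of 253 Alb UMIs, and were 246 to 404 CPM in the control mice. Neutrophil and basophil markers stayed at or under 75.4 CPM and erythroid ones at or under 124 CPM in every mouse. Other markers at 0 in all 8 mice were Jchain of the B cell list, Clec4a4 of the cDC2 list, Retnlg and Ngp of the neutrophil list and Mup20 of the hepatocyte list.

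Leaving out the cDC1s with a UMI of Cd3d, Cd3e, Cd3g, Trbc1 or Trbc2 left 247 cells. In these, 8 of 2419 genes were higher, and 13 of the 14 genes were tested. Of the 8, 5 were among the 14, namely Hist1h2ap, Ifi27l2a, Ly6a, Plac8 and Stmn1. The part of this RNA in the other results was not tested.

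The third comparison asked whether cDC1s responded like the other dendritic cells of the same livers. Against cDC2s, 0 of 2530 genes differed in response (0%, edgeR with the mouse as a block), with 93 at an unadjusted p under 0.05. This test used 3 control mice, since Control replicate 3 held 9 cDC2s. Isg15 and Bst2 had responses of 1.76 and 0.77 in cDC1s and 2.13 and 1.32 in cDC2s on the log2 scale. Ifi27l2a, Ly6a and Ifi207 had the larger response in cDC1s, at 2.04, 1.86 and 0.90 against 1.44, 1.49 and 0.01. For Isg15 and Bst2 the differences, cDC1s minus cDC2s, were -0.37 ± 0.52 and -0.41 ± 0.33 (SE). For Ifi27l2a, Ly6a and Ifi207 they were 0.77 ± 0.24, 0.57 ± 0.45 and 0.95 ± 0.37. None of these genes passed, and the test could neither set the classes apart nor show that they were alike.

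Against pDCs, 2 of 5001 genes differed in response (0.04%), with 253 at an unadjusted p under 0.05. Slfn5 (chr11:82951349-82964840), a Schlafen gene that interferon induces, measured, before TMM scaling, 111, 139, 150.2 and 154 CPM in control cDC1s and 219, 179, 272 and 179.8 CPM in BG cDC1s. In pDCs it measured 17.9, 51.6, 54.2 and 49.9 CPM in control and 249, 146, 259.7 and 156 CPM in BG mice. Control pDCs were thus far lower than control cDC1s, and the levels of the classes overlapped in the BG mice. The response differed by -1.57 ± 0.24 on the log2 scale, cDC1s minus pDCs (SE, edgeR adjusted p = 0.00228). Within cDC1s alone Slfn5 did not pass the test (log2 fold change 0.59 ± 0.19, edgeR adjusted p = 0.353), though every BG mouse was above every control. The difference from pDCs stayed past the threshold in each of 11 alternative fits.

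For Bst2 the difference had the other sign. Before TMM scaling it measured 164, 183, 194 and 136 CPM in control and 258, 306, 336 and 273 CPM in BG cDC1s, and 3238, 3523, 3305 and 3199.7 CPM in control and 3347, 3375, 3941 and 3090.4 CPM in BG pDCs. pDCs, which are known for constitutive Bst2, held it at a level well above that of cDC1s in every mouse. The responses differed by 0.70 ± 0.14 (SE, edgeR adjusted p = 0.0495), and this call was lost in all 11 alternative fits, with the difference between 0.63 and 0.73 when single mice were left out. The responses of Ifi27l2a, Ly6a, Isg15 and Irf7 were 2.04, 1.86, 1.76 and 1.09 in cDC1s and 1.62, 1.34, 1.69 and 1.26 in pDCs, and none of these 4 passed the test of the difference.

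**Figure D5:**
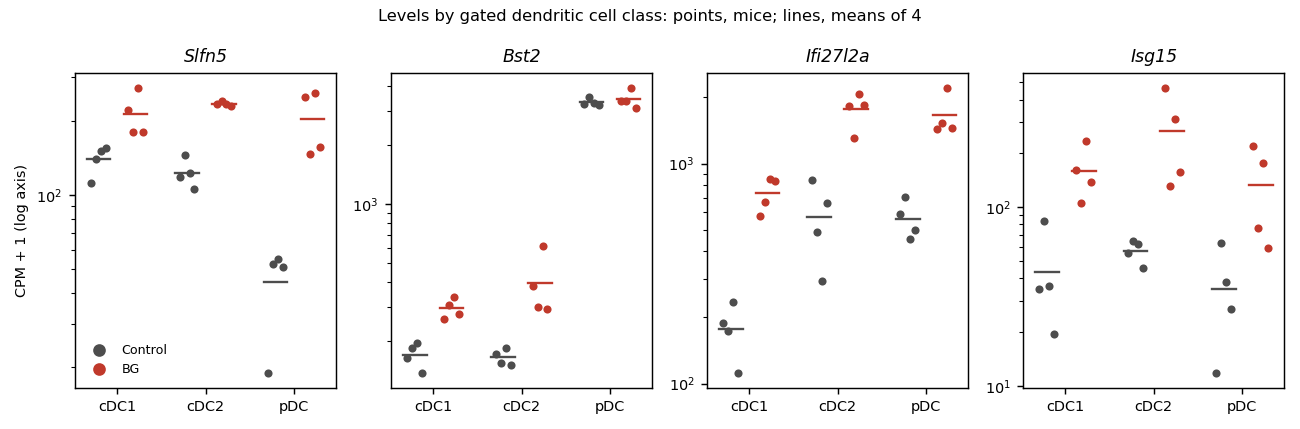
Levels (CPM + 1, log axis) of Slfn5, Bst2, Ifi27l2a and Isg15 in gated cDC1s, cDC2s and pDCs, where points are mice and lines are means of 4. Slfn5 lay between 139 CPM (control mean) and 212 CPM (BG mean) in cDC1s but between 43.4 and 203 CPM in pDCs.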

How the data were processed

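Liver leukocytes of 8 mice, 1 library each, were profiled with 10x 3′ chemistry. The deposited files hold UMI counts per gene and barcode, which the authors made with Cell Ranger (6.1.2 per the file headers) by aligning reads to mm10 with introns counted. They list 32285 genes. No doublet caller was run, and the gate left out cells with markers of 5 other types. The study kept cells with up to 2500 genes. Here the limit was 5000, and the lower one was an alternative.

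For each mouse, counts of the gated cells were summed and tested with edgeR 4.0.16 in R 4.3.3 (TMM, filterByExpr, quasi-likelihood F test, Benjamini-Hochberg adjusted p over all genes tested). A call needed an adjusted p under 0.05 and a log2 fold change beyond 0.5. Differences of response between cell types were tested as an interaction with the mouse as a block, in mice with at least 10 cells of both types. Genes of the gate were not tested. Shares were compared by two-sided exact permutation (scipy 1.17.1). The scripts were checked on simulated data. At the depths of these cDC1 sums, the test recovered 71 of 100 genes changed 2-fold and 85 of 100 changed 4-fold. It made 8 false calls. Smaller changes were not simulated, so a list without a call does not show that its genes were unchanged. Depth per mouse was 154975 to 415405 UMIs over 26 to 56 cDC1s, so genes with few UMIs per mouse could not be tested. Intervals and limits cover counting error only.

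The 36 gene lists and the gate were chosen with earlier results of these data known. Values are given for genes that passed the test without overlap between groups, for each list's called members and some of its 4 most abundant ones, and for genes whose response differed between cell types. Exceptions are named as such, and 1 gene of the rule is not reported here. Other genes of the levels by cell type come from the cDC1 and cDC2 lists. Alternatives were RLE scaling, DESeq2 1.42.0, no filter on low counts, other gates and limits, equal depth and leaving out each mouse. Leaving out cells with T cell receptor UMIs or with Mki67 or Top2a UMIs was added after the data were seen.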

Additional observations from a re-analysis of the deposited data

Results flagged for a closer look

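3 of 122 groups of 4 mice held 1 mouse far from the other 3 by Dixon's test, where chance gives about 1 in 20. H2-D1 was 918 CPM in Control replicate 4 and 1205 to 1259.6 CPM in the other controls. Hist1h2ap was 508 CPM in BG replicate 6 and 274 to 287 CPM in the other BG mice. Xcr1, a gate gene, was 646 CPM in BG replicate 5 and 430.1 to 461 CPM in the other BG mice.

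The BG response of Slfn5 differed between cDC1s and pDCs by -1.57 on the log2 scale, cDC1s minus pDCs (edgeR adjusted p = 0.00228), with the smaller response in cDC1s. The response of Bst2 differed by 0.70 in the other direction (edgeR adjusted p = 0.0495), a call that none of 11 alternative fits kept.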

How the results depend on the processing

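No paired analysis was possible because the control and BG mice share no replicate numbers. The difference in the share of cDC1s among kept cells turned to 0.0289 percentage points with at least 3 gate markers, 0.00663 with cells thinned to 1500 UMIs and 0.272 with at most 10% mitochondrial UMIs, and ran from -0.113 to 0.00543 when single mice were left out. The share among gated dendritic cells turned to 1.49, 0.672 and 14.0 percentage points under the same 3 settings, and ran from -3.90 to 4.46 without single mice. None of these had an exact permutation p below 0.114.

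The count of higher genes was 44 with no filter on low counts, where 7 were lower (13956 genes tested), 3 with at most 2500 genes per cell, 0 of 485 genes in the 67 cells with no UMI of 12 genes of other cell types, 8 without cells with T cell receptor UMIs, 3 without cells with Mki67 or Top2a UMIs and 8 at equal depth per mouse. These 5 smaller sets held fewer UMIs and fewer genes tested. Without single mice it ran from 3 to 15 higher and from 0 to 1 lower. The count of genes whose response differed from cDC2s was 2 with at most 2500 genes and 0 to 3 without single mice. That against pDCs was 1 with RLE scaling, 1 at equal depth and 1 to 10 without single mice.

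Of 837 refits of named genes, 722 kept direction and side of the threshold, 86 lost a call, 4 gained one and 25 turned, none of these for a gene that had passed the test. With at most 2500 genes the log2 fold change was 0.013 for Wdfy4, 0.14 for Ifngr1, -0.050 for Cxcl9 and -0.031 for Hsp90aa1. With at least 3 markers it was -0.55 for Cxcl9, -0.012 for Hmgb2 and 0.39 for Fcer1g. Without cells with UMIs of other types it was 0.011 for Ifngr1 and -0.82 for Cxcl9, and without T cell receptor UMIs it was 0.025 for Itgb2. Without cells with Mki67 or Top2a UMIs it was 0.015 for H2-Eb1, 0.081 for Ifngr1, 0.012 for Irf5, -0.16 for Pcna, -0.16 for H2afz and -0.071 for Hsp90aa1. At equal depth it was 0.049 for Irf5 and 0.14 for Jak2. Without single mice it ran from -0.036 to 0.15 for H2-D1, from -0.028 to 0.24 for H2afz and from -0.16 to 0.056 for Itgb2. The cause of these changes was not tested. Of 418 refits of list medians, 374 moved by less than the spread between replicates.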
